A study of Mus musculus with 6 samples.

Results

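The genes described here encode the proteins of the cytosolic ribosome. They were taken by name from a table of raw read counts: symbols of the forms Rpl, Rps, Rplp and Rpsa, without pseudogene names, with at least 10 counts in 3 or more libraries. Of 38293 genes in the table, 87 matched by name and 80 met the count minimum, 33 of the small (40S) and 47 of the large (60S) subunit. The annotation gives 79 of them as protein-coding and Rps4l as a transcribed processed pseudogene. All 80 were among the 14642 genes that passed the low-count filter and were tested. At the edge of the rule, Rps4l had the lowest counts of the 80, from 18 to 41 per library. Outside it, Rpl3l had 0 to 12 counts, Rps3a3 1 to 7 and Rps3a2 0 to 7, and Rpl10l, Rpl39l, Rpl6l and Rps12l1 had at most 2.

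Poly(A)-selected RNA was sequenced from wild-type Swiss-Webster mouse cortical neurons, taken at embryonic day 16 and grown for 13 days in vitro. Control neurons received no stimulation (3 libraries). NMDA neurons were bathed in 50 µM NMDA, an agonist of one class of glutamate receptor, for 10 minutes and were collected after a further 50 minutes without the drug (3 libraries). The shared growth text also describes etoposide, but no library is labelled with it. The extraction text speaks of a pair of biological replicates while 3 libraries stand in each group, so the p-values measure the spread between these libraries, which may be technical. In such bulk samples, fewer cells of a type and less RNA per cell cannot be told apart.

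Most ribosomal proteins are present once in each ribosome, around its ribosomal RNAs. Their genes are in general among the most highly transcribed in a cell. Many of their messenger RNAs begin with a C followed by a run of pyrimidines, the terminal oligopyrimidine or TOP motif, through which the kinase complex mTORC1 and the protein LARP1 control their translation. Neurons translate part of these messages in dendrites and axons, and synaptic activity acts on the mTORC1 pathway. Mammalian genomes also carry many processed pseudogenes of ribosomal protein genes, which are intronless copies of their messages, and several of the genes have paralogues. A final "a", as in Rpl10a or Rpl13a, is part of a protein's name and does not mark a paralogue of Rpl10 or Rpl13.

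2 sets of sequences bear on the results. The first shows how alike a member and a pseudogene of it are, which bears on where a read is counted. It is the same stretch of coding sequence, bases 157 to 197, in the gene Rpl26 (chromosome 11, exons on the plus strand, where the stretch spans a splice junction) and in its processed pseudogene Gm15772 (chr5:3236587-3236627, plus strand), from GENCODE M21 transcripts on GRCm38. The capital marks the differing base.
Rpl26: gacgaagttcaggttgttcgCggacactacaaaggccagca
Gm15772: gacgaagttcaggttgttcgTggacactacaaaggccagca
Over the whole coding sequence 436 of 438 bases are identical. The differences, counted from the first coding base with the base of Rpl26 first, are C177T and T288C. For Rpl29 and its pseudogene Gm13841 (chr5:115801677-115802159, minus strand), 480 of 483 coding bases are identical, and the differences are C72A, C300T and T423C. The first of these lies in an exon of Rpl29 (chr9:106430322-106430362, plus strand) and in the pseudogene (chr5:115802068-115802108, minus strand).
Rpl29: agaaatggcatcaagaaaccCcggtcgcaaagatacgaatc
Gm13841: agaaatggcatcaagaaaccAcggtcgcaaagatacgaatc

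The second set shows the annotated transcription starts of members with and without a TOP-like run, from RefSeq (GRCm38.p6), with 10 bases before the start and 20 from it. Capitals mark a C followed by at least 4 pyrimidines. The members are Rpl28 (chr7:4792955-4792984, plus strand), Rplp2 (chr7:141447641-141447670, plus strand), Rps6 (chr4:86857348-86857377, minus strand), Rps27 (chr3:90213629-90213658, minus strand) and Rps16 (chr7:28350679-28350708, plus strand).
Rpl28: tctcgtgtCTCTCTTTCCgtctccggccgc
Rplp2: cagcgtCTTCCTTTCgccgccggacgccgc
Rps6: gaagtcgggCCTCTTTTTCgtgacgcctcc
Rps27: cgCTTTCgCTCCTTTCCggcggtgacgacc
Rps16: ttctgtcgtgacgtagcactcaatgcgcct
In Rpl28, Rplp2, Rps6 and Rps27 the run covers the annotated start, and in Rps16 there is none in the window. Of the 80 members, 59 had an entry in the RefSeq table. A stretch of C and 4 pyrimidines lay from the annotated start onward, on the sense strand, in 13 of them (22.0%), against 3.01% of 27025 genes. The run around it may begin further upstream, as in Rpl28. Such a stretch began within 10 bases of the start in 36 of 59 (61.0%), against 34.4% of all genes. The letters CCGGAAG, the core bound by ETS transcription factors, were found on either strand of the 300-base window in 25 of 59 (42.4%, all genes 9.93%). The letters AAGATGGCG, bound by YY1, were found in 4 of 59 (6.78%, all genes 1.64%). For all these features, a gene with several annotated starts was counted if any of them had it.

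The 80 genes together took 1.93, 1.76 and 1.47% of all counted reads in the controls, given in the order of replicates 1, 2 and 3 as are all such series of values, and 1.78, 1.84 and 1.78% in the NMDA libraries. The means were 1.72 ± 0.231% and 1.80 ± 0.0304% (SD, n = 3 each). The 3 NMDA libraries lay within the range of the controls, which were spread far more widely. Within replicate numbers the share fell by 0.146 percentage points in pair 1, and rose by 0.0774 in pair 2 and by 0.314 in pair 3. Without mitochondrially encoded genes in the denominator the shares were 2.34, 2.06 and 1.63% in controls and 2.11, 2.08 and 2.01% in NMDA libraries, in the same order among the controls.

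Levels differed widely among members once scaled counts (CPM, each count relative to a fixed library total) were divided by exonic length. The median was 99.8 CPM per kb over the 6 libraries. Rps15, a protein of the head of the small subunit, was highest at 419 CPM per kb, ahead of the stalk protein gene Rplp1 at 397 and of Rpl41, which encodes the shortest ribosomal protein, at 394. The lowest were Rps4l at 1.53, Rpl29 at 5.30 and Rpl34 at 13.8 CPM per kb. These lengths join all annotated exons, from 383 to 6270 bases per gene, so a gene with long rarely used exons reads low. The medians of the subunits were 115 CPM per kb for the 40S and 87.1 for the 60S genes. A median of 31.8% of a member's exonic sequence occurs as stretches of 50 or more bases in other genes, mostly pseudogenes, from 0 in Rps14 to 81.1% in Rpl36. Across the 80 members, the level per kb and this shared percentage had a Spearman rho of 0.42. That is a description over genes measured in the same libraries, not over independent samples.

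The members moved together from library to library more than with the treatment. For each gene the departure of a library is its log2 CPM minus the gene's mean over the 6 libraries. The members' median departure was 0.19, -0.02 and -0.31 in the controls and 0.05, 0.05 and 0.02 after NMDA. Control 3 was the lowest library for 74 of the 80 genes and control 1 the highest for 50. The 3 NMDA libraries lay closer together than the controls. Over all genes tested the same medians stayed between -0.01 and 0.01, but the library scaling, computed on those genes, itself keeps them small.

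**Figure D1:**
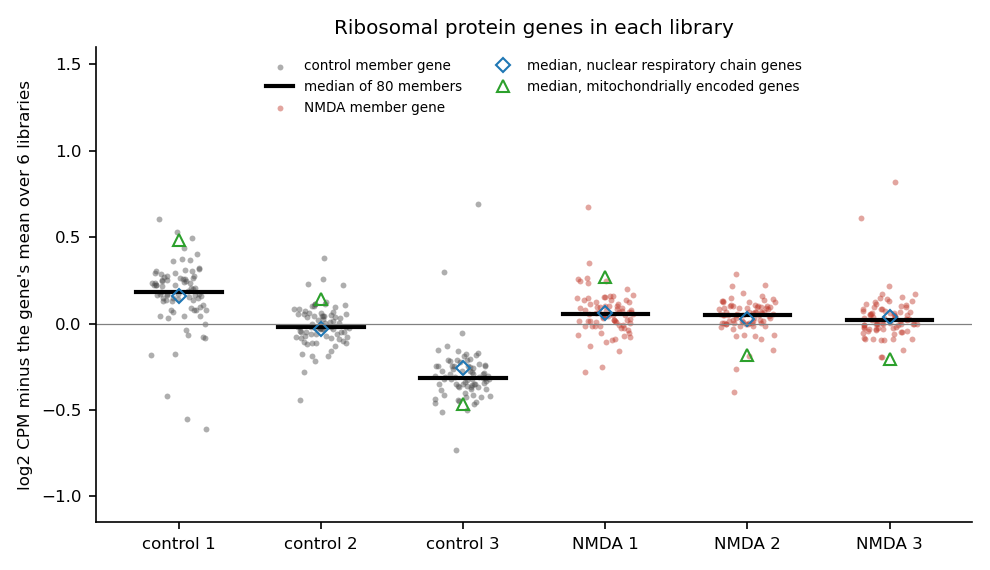
Each point is 1 of the 80 ribosomal protein genes in 1 library, as log2 CPM minus the gene's own mean over 6 libraries; black lines are the members' medians, diamonds and triangles the medians of 81 nuclear respiratory chain and 17 mitochondrially encoded genes. Control 1 lies high (median 0.19) and control 3 low (median -0.31), while the NMDA medians lie between 0.02 and 0.05.

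Nuclear genes of the respiratory chain, another group of short, abundant messages, kept the same order among controls, with median departures of 0.16, -0.03 and -0.26, and 0.06, 0.03 and 0.04 in the NMDA libraries. The median for mitochondrial ribosomal protein genes was 0.10, 0.04 and -0.17 in controls, and 0.04, 0.02 and -0.01 in NMDA libraries. Mitochondrially encoded genes took 17.6, 14.7 and 9.77% of counts in the controls, again in this order, and 15.3, 11.7 and 11.2% after NMDA. Their part in the members' shift between control libraries was not tested.

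No ribosomal protein gene passed the test between NMDA and control. In edgeR's quasi-likelihood test without pairing, 0 of 80 members had an adjusted p under 0.05, against 0.43% of all genes tested. The DESeq2 Wald test and limma-voom also called 0 members, where they called 306 and 60 of the 14642 genes. In edgeR's test 1 member, Rpl28, had an unadjusted p under 0.05, against 13.7% of all genes. The members' median log2 fold change was 0.08, with 64 of 80 above 0, beside -0.01 and 7182 of 14642 over all genes. The library scaling keeps that all-gene median small. Fitted changes ran from -0.14 in Rps14 to 0.48 in Rpl23a. The subunits had similar medians, of 0.07 for the 33 small and 0.08 for the 47 large subunit genes. The median without control replicate 3 was -0.04, and without control replicate 1 it was 0.20, with 0 members called there against 0.243% of all genes.

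**Figure D2:**
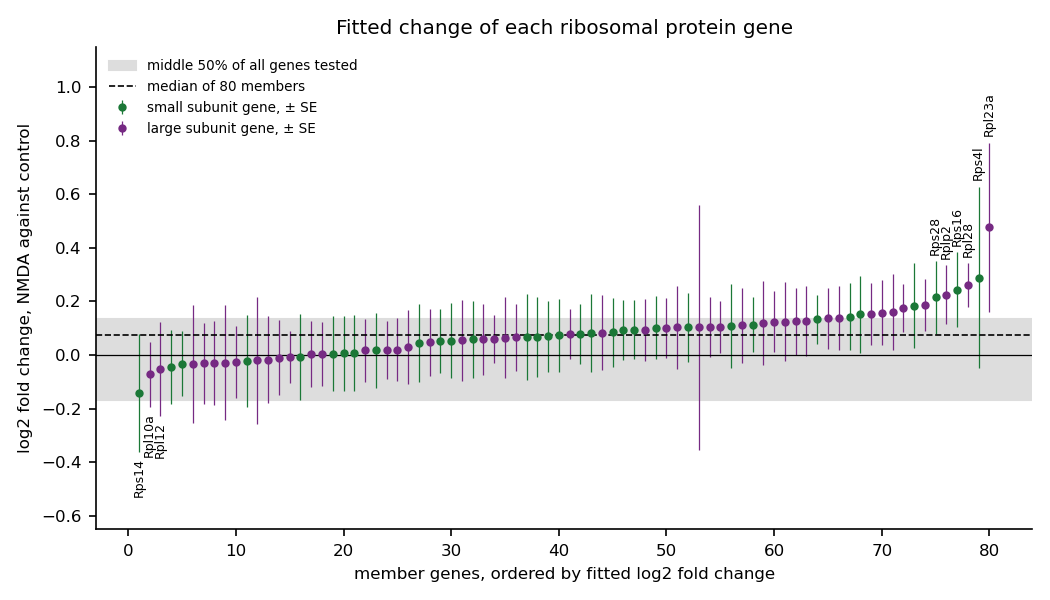
Fitted log2 fold change (NMDA against control) of each of the 80 members with its standard error, ordered by value and coloured by subunit; the grey band holds the middle 50% of all genes tested, from -0.17 to 0.14. Most members lie between 0 and 0.2, and Rps14 and Rpl23a are the ends, both with wide errors.

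Over all genes, libraries of the same replicate number deviated together, and taking the number as a block gave the comparison within pairs. Over the 80 members alone the correlations within numbers 1, 2 and 3 were -0.03, 0.35 and 0.61. Between different numbers they reached 0.47, for control 2 with NMDA 1, so the members alone did not show the pairing as all genes did. With the block, 1 of 80 members rose, Rpl28, and 0 fell, against 5.65% of all genes higher and 8.35% lower. At an unadjusted p under 0.05 there were 6 of 80 members, against 28.7% of all genes. The members' median was 0.09 and 70 of 80 were above 0. The 3 pairs did not show the same change. Between NMDA and control replicate 1 the members' median was -0.14 on the log2 scale, and 19 of 80 were higher after NMDA. In pair 2 it was 0.06 with 52 higher, and in pair 3 it was 0.32 with 79 higher. The all-gene medians, which the library scaling keeps small, were -0.02, -0.01 and 0.00. The pairs with the low and the high control library thus had opposite signs, and leaving out both libraries of 1 number changed the count of calls. Without replicate 1, 32 of 80 members were higher and 0 lower in the blocked fit (background 18.4% in either direction), with a median of 0.21. Without replicate 3, Rpl23a was the 1 member called (background 9.93%) and the median was -0.02, and without replicate 2 Rpl23a and Rps28 were called (background 6.9%). These fits without a pair rest on fewer residual degrees of freedom than the blocked fit of all pairs, so their counts of calls are less certain.

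**Figure D3:**
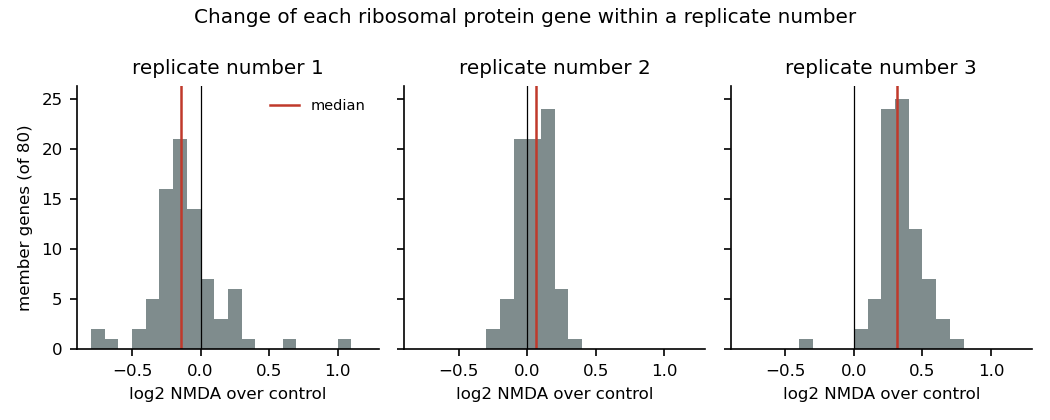
Histograms of log2 NMDA over control CPM for the 80 members within each replicate number, with the median in red and 0 in black. The members lie mostly below 0 in pair 1 (median -0.14), around 0 in pair 2 (0.06) and above 0 in pair 3 (0.32).

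Among large subunit genes, Rpl28, which has no counterpart in bacteria, stood at 138, 154 and 137 CPM in controls and at 176, 167 and 171 CPM after NMDA. All 3 NMDA libraries lay above all 3 controls, and NMDA was higher within each pair, by 0.35, 0.12 and 0.32 on the log2 scale. The fitted log2 fold change was 0.26 ± 0.08 (SE), with an edgeR adjusted p of 0.232 without the block and 0.0234 with it. The blocked call was lost without replicate 2 (adjusted p = 0.0695) and without replicate 3 (adjusted p = 0.0747). Rpl28 lies on chromosome 7 (4792874 to 4795066, plus strand).

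The NMDA and control libraries did not overlap in 4 other members, all higher after NMDA and none called in either fit. They were Rpl23, which faces the small subunit, Rpl4, which lines the exit tunnel for the growing chain, the stalk gene Rplp2 and Rps16, which touches the transfer RNA in the small subunit. With Rpl28 that makes 5 of 80 higher and 0 lower, against 8.18% and 11.1% of all genes. Rps16 stood at 139, 132 and 91.2 CPM in controls and at 143, 144 and 141 CPM in NMDA libraries, so that the low control 3 made most of its fitted change of 0.24 ± 0.14. Without control replicate 3 the change was 0.08. Rps16 was also called, at 0.25 ± 0.08 and an edgeR adjusted p of 0.0468, when the blocked fit was corrected for GC content and exonic length (14.5% of all genes called). Rpl4 stood at 490, 497 and 436 CPM in controls and at 541, 537 and 529 CPM after NMDA (log2 0.18 ± 0.09). Rpl23 stood at 321, 351 and 288 CPM in controls and at 371, 365 and 355 CPM after NMDA (log2 0.19 ± 0.10). NMDA exceeded control in every pair for 8 members, these 5 among them, and no member was lower in every pair, against 22.5% of all genes higher and 25.7% lower in every pair.

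The stalk of the large subunit, which recruits elongation factors, is built from the products of Rplp0, Rplp1 and Rplp2. Rplp2 was at 106, 101 and 80.0 CPM in controls and 109, 111 and 116 CPM after NMDA, with a fitted change of 0.23 ± 0.11 and an edgeR adjusted p of 0.398. Rplp0 and Rplp1 overlapped between the groups. Rplp0 was at 476, 390 and 313 CPM in controls against 410, 389 and 372 CPM (log2 -0.01 ± 0.14), and Rplp1 at 238, 181 and 151 CPM against 209, 197 and 215 CPM (log2 0.12 ± 0.15). In all 3 genes control 3 was the lowest of the 6 libraries.

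Rpl5 and Rpl11 form a particle with 5S ribosomal RNA and, when free of the ribosome, bind the p53 inhibitor MDM2. Rpl5 was at 402, 393 and 305 CPM in controls and 393, 383 and 328 CPM after NMDA (log2 0.00 ± 0.12). Rpl11 was at 216, 213 and 165 CPM in controls and 203, 220 and 217 CPM after NMDA (log2 0.10 ± 0.11). Both sets overlapped, with control 3 lowest.

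The large subunit gene with the highest fitted change, Rpl23a, encodes a protein at the mouth of the exit tunnel where the signal recognition particle docks. It stood at 22.3, 38.9 and 17.9 CPM in controls and 47.7, 36.5 and 26.1 CPM in NMDA libraries. The groups overlapped, and the libraries did not follow the members' shared order. The fitted change was 0.48 ± 0.32 with an edgeR adjusted p of 0.551, and the 3 pairs gave 1.10, -0.09 and 0.54. In the other direction, Rpl12, of the stalk base, was at 385, 275 and 221 CPM in controls and 301, 271 and 278 CPM after NMDA (log2 -0.05 ± 0.18). Rpl10a was at 127, 109 and 88.5 CPM in controls and 106, 100 and 102 CPM after NMDA (log2 -0.07 ± 0.12). In both, the 3 NMDA libraries lay inside the span of the controls. Rpl41 was at 514, 470 and 343 CPM in controls and 505, 473 and 455 CPM after NMDA (log2 0.11 ± 0.14).

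Among small subunit genes the lowest fitted change was that of Rps14, a protein of the platform where messenger RNA is held, at -0.14 ± 0.22. It stood at 337, 195 and 182 CPM in controls and 199, 224 and 225 CPM in NMDA libraries, so that control 1 alone lay above all others. Without control replicate 1 or pair 1 the sign turned. Rps28, at the exit of the messenger RNA channel, was at 91.3, 98.1 and 67.0 CPM in controls and 108, 97.6 and 91.7 CPM after NMDA. The groups overlapped, and the fitted change was 0.22 ± 0.14.

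Rps6, the classical substrate of the S6 kinases downstream of mTORC1, was at 167, 184 and 131 CPM in controls and 166, 157 and 149 CPM in NMDA libraries (log2 -0.03 ± 0.12). Rps27a, made as a fusion with ubiquitin, was at 338, 261 and 201 CPM in controls and 273, 286 and 279 CPM after NMDA (log2 0.07 ± 0.16). Rpsa, which is also known as the laminin receptor precursor, was at 668, 500 and 450 CPM in controls and 581, 511 and 536 CPM after NMDA (log2 0.01 ± 0.14). In these 3 genes the NMDA libraries lay within the range of the controls. Rps15 was at 309, 250 and 211 CPM against 280, 270 and 265 CPM (log2 0.08 ± 0.13), and Rps15a at 315, 277 and 208 CPM against 271, 260 and 244 CPM (log2 -0.04 ± 0.14).

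The ratio of paralogue to canonical gene was compared in 5 pairs. Of the other listed pairs, the paralogues Rpl3l, Rpl39l and Rpl10l were below the count minimum. With 3 libraries against 3 the two-sided exact permutation test cannot go below 0.1, and the 5 tests gave p from 0.4 to 0.8, each 0.8 after adjustment over the 5. Rpl22l1, which can take the place of Rpl22 in the ribosome, had 46.2, 29.2 and 30.8 counts per 100 of Rpl22 in controls and 28.2, 35.3 and 35.6 in NMDA libraries. Control 1 stood above the other 5 libraries, and the mean log2 ratio was -1.53 ± 0.36 in controls and -1.60 ± 0.19 after NMDA (SD, n = 3). Rpl22l1 itself fell by 0.74 in pair 1 and was 0.29 and 0.48 higher in pairs 2 and 3, while Rpl22 gave -0.04, 0.01 and 0.27.

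Rps27l, a p53-responsive relative of Rps27, had 41.3, 56.5 and 48.8 counts per 100 of Rps27 in controls and 42.3, 47.7 and 44.4 after NMDA. The NMDA libraries lay inside the control range. Rpl7l1 had 15.4, 17.6 and 19.6 counts per 100 of Rpl7 in controls, against 17.3, 17.8 and 18.4 after NMDA. Rps4l, the annotated pseudogene among the members and an autosomal relative of the X-linked Rps4x, had 0.424, 0.317 and 0.419 counts per 100 in controls and 0.415, 0.334 and 0.591 after NMDA. These rest on 18 to 41 counts of Rps4l per library. Rpl36al had the steadiest ratio to its partner Rpl36a, at 52.8, 49.9 and 51.6 per 100 in controls and 49.1, 51.3 and 51.1 after NMDA. The counts in these ratios are not divided by length. The mean log2 differences, NMDA minus control, were -0.08 for Rpl22l1, -0.11 for Rps27l, 0.03 for Rpl7l1, 0.16 for Rps4l and -0.03 for Rpl36al.

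**Figure D4:**
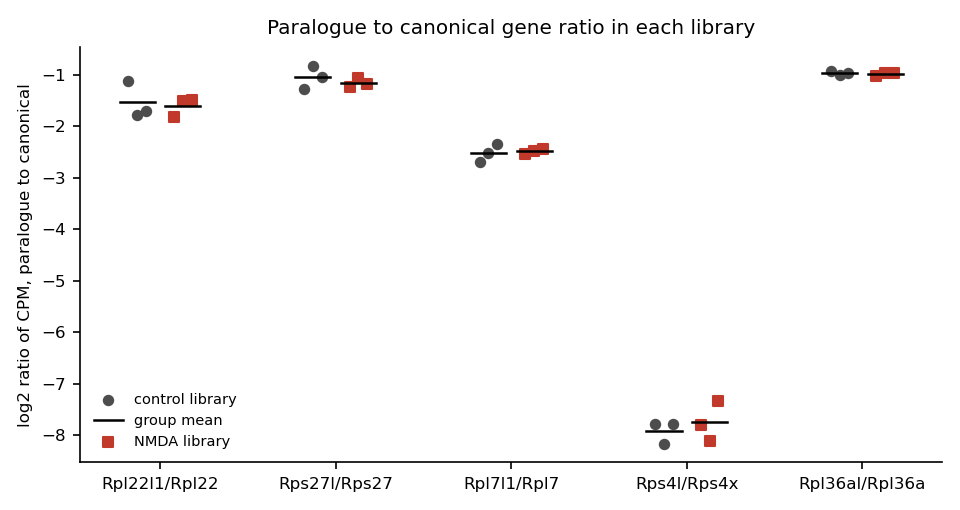
Log2 ratio of paralogue to canonical CPM in each of the 6 libraries for 5 pairs, with group means as lines. Control and NMDA libraries overlap in each pair, and Rpl36al/Rpl36a has the tightest values, from -1.02 to -0.92.

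Departures from the members' shared shift were then examined. With the members alone setting the zero of the scale, 0 of 80 passed edgeR's test without the block (background 0.731%) and 0 with it (background 3.74%). On this scale the all-gene median moved from -0.01 to -0.10 and the members' median was 0.00. Standard errors on this scale were wider for most members. That of Rpl27a was 0.18 without the block and 0.20 with it, beside 0.12 and 0.09 under the ordinary scaling. Small departures could thus not be called, and the 0 does not show that every member kept to the shared shift. Once the members' median of each library was removed, the SD of a member over the 6 libraries had a median of 0.0886 on the log2 scale. It was under 0.1 for 47 members and under 0.15 for 67. Rpl27a was the closest follower, at 0.0162. It was over 0.3 for 4: Rpl26, Rpl23a, Rpl29 and Rps4l, which were singled out after their values were seen.

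Rpl26, a protein beside the exit tunnel, differed between replicate numbers and not with NMDA. It had 1188, 1397 and 2891 counts in controls and 1159, 1300 and 3132 after NMDA. Replicate 3 was the highest in both groups, at 153 CPM against 64.4 and 77.7 in controls and 167 CPM against 77.7 and 71.6 after NMDA, opposite to the shared shift of the controls. In the blocked fit, edgeR's test of the replicate numbers, added after the data were seen, gave a log2 difference of 1.17 between numbers 3 and 1 and an adjusted p of 5.53e-08. It called 17 of 80 members, against 15.8% of all genes. The fitted NMDA change of Rpl26 was 0.10 ± 0.46 without the block and 0.10 ± 0.08 with it.

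Where Rpl26 was low, its pseudogene Gm15772, the near copy set beside it earlier, was high. Gm15772 had 3493, 2955 and 989 counts in controls and 2658, 3063 and 1161 after NMDA. Replicate 3 was the lowest on Gm15772 in both groups, where it was the highest on Rpl26. Its own test of the replicate numbers gave an edgeR adjusted p of 9.59e-10 and a log2 difference of -1.69 between numbers 3 and 1. Pseudogenes sharing 50 bases with Rpl26 together held 74.6, 67.9 and 25.6% of the joint counts in controls and 69.7, 70.3 and 27.1% after NMDA. When the counts were added, Rpl26 with its pseudogenes stood at 254, 242 and 205 CPM in controls and 256, 241 and 229 CPM after NMDA. The SD of its departure fell from 0.718 to 0.0744, and the edgeR adjusted p for the replicate numbers became 0.171. The sum thus followed the other members.

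Other members shared counts with pseudogenes to lesser or steadier extents. Rpl29 had 70, 126 and 137 counts in controls and 88, 110 and 109 after NMDA, beside 1383, 1064 and 981 and then 1128, 985 and 1169 on Gm13841. Its pseudogenes held 88.4 to 95.4% of the joint counts in every library, and the sum stood at 83.001, 70.2 and 62.4 CPM in controls and 85.4, 64.7 and 71.2 CPM after NMDA. The departure SD went from 0.467 to 0.133, and the edgeR adjusted p for the replicate numbers from 0.232 to 0.0196. The level per kb given earlier counts the reads on Rpl29 alone.

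Rps24 and Rps26, both mutated in Diamond-Blackfan anaemia and likewise singled out after their values were seen, also showed shares that went with the replicate number. Rps24 pseudogenes, mainly Rps24-ps3 on the X chromosome, held 7.38, 17.6 and 5.43% of the joint counts in controls and 8.47, 14.5 and 4.34% after NMDA. Replicate 2 was high in both groups. Rps26 pseudogenes held 18.6, 18.3 and 8.07% in controls and 18.0, 18.1 and 10.3% after NMDA, with replicate 3 low in both. In Rpl34, at 51.8, 33.2 and 26.0 CPM in controls and 34.0, 36.1 and 38.3 CPM after NMDA (log2 -0.03 ± 0.22), the share was 35.8 to 43.9% without such a pattern. In all, 6 members had over 10% of the joint counts on pseudogenes and 60 had under 1%, among them the 11 with no pseudogene count. What separates the replicate numbers at these loci was not tested.

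**Figure D5:**
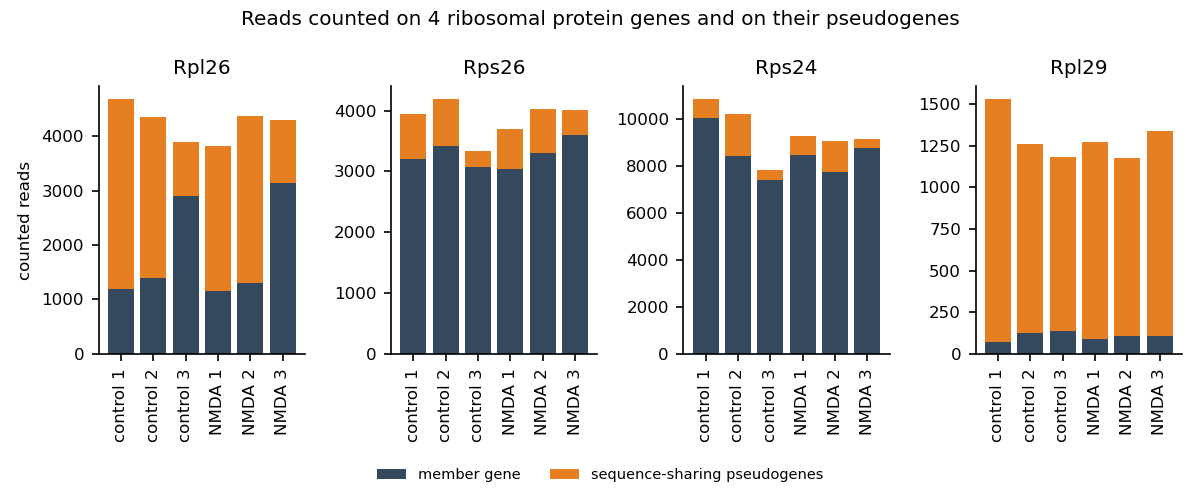
Counted reads in each library on Rpl26, Rps26, Rps24 and Rpl29 (dark) and on the pseudogenes sharing at least 50 bases with each (orange), stacked, each panel with its own scale from 0. In Rpl26 the pseudogenes hold 67.9 to 74.6% of the reads in replicates 1 and 2 and 25.6 to 27.1% in replicate 3 of both groups, while the sums differ far less.

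For Rpl23a the pseudogenes held 3.27% of the joint counts, and the departure SD was 0.465 after addition, beside 0.488 before. Of its exonic sequence 74.0% is shared with other genes. Adding all 645 pseudogenes to their members left the unpaired and paired counts of called members at 0 and 1, and the median log2 fold change at 0.07 and 0.09.

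Members with and without the start features had similar fitted changes. The 13 members with a TOP-like run at the annotated start had a median log2 fold change of 0.09 and the 46 without it 0.07. For the ETS letters the medians were 0.07 with and 0.08 without. Across the 80 members the fitted change had a Spearman rho of -0.34 with exonic length, shorter genes lying higher, as a description across genes of the same libraries.

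Ribosomal proteins named outside the rule gave similar values. Fau, the precursor of a small subunit protein, had a fitted change of 0.10 ± 0.12, Rpl36al of 0.13 ± 0.13 and Rack1, a signalling scaffold on the small subunit, of -0.01 ± 0.13. Of 18 translation factors with TOP messages, 0 passed the unpaired test and 1 rose with the block, against 5.65% of all genes: Eef1d, of the elongation factor 1 exchange complex, from 70.0 ± 4.02 to 81.8 ± 5.43 CPM (log2 0.22 ± 0.07, edgeR adjusted p = 0.041). Their median was 0.08 with 17 of 18 above 0, and Eef1a1 and Eef2, the main elongation factors, picked after their values were seen, gave 0.05 and 0.06.

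Genes that control or build ribosomes were called in both directions in the fit with the block, and 0 of them without it. The counts stand beside 5.65% of all genes higher and 8.35% lower with the block, and 0.43% called without it. Of 18 mTORC1 and TOP control genes 2 rose and 2 fell (median 0.07). Rheb, the activator of mTORC1, was at 130, 125 and 141 CPM in controls and 155, 160 and 172 CPM after NMDA (log2 0.29 ± 0.07, adjusted p = 0.00906). Tsc1, of the complex that restrains Rheb, was at 65.9, 57.5 and 60.7 CPM in controls and 52.1, 52.3 and 48.5 CPM after NMDA (log2 -0.27 ± 0.07, adjusted p = 0.0215). In both genes the groups did not overlap. Sesn2, a stress-induced inhibitor of mTORC1, rose by 0.34 ± 0.09 and the S6 kinase gene Rps6kb2 fell by 0.44 ± 0.10 on the log2 scale. Larp1 and Mtor, also picked afterwards, gave 0.08 and 0.01 and were not called.

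Of 17 genes for RNA polymerase I and its factors 2 rose and 1 fell with the block, beside the same 5.65% and 8.35% of all genes. Myc, a driver of ribosome production, was at 30.5, 30.4 and 27.0 CPM in controls and 35.0, 42.4 and 39.3 CPM after NMDA (log2 0.41 ± 0.09, edgeR adjusted p = 0.0036). Rrn3, the initiation factor that activates polymerase I, rose by 0.22 ± 0.07, and Taf1c fell by 0.65 ± 0.16. Of 43 ribosome assembly factors 6 rose and 7 fell with the block (all genes 5.65% and 8.35%), with a median of 0.07 without and 0.08 with it. The 5 with the smallest p were Mdn1 (log2 -0.44 ± 0.08), a giant ATPase that frees factors from the large subunit precursor, Utp20 (-0.47 ± 0.09), Nolc1 (0.39 ± 0.08), the methyltransferase gene Fbl (0.40 ± 0.09) and Las1l (-0.33 ± 0.07). The other risers were Rrs1, Ddx21, Ncl and Gar1, and the remaining fallers are not named here.

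Of 12 genes of p53 and its control by free ribosomal proteins 3 rose with the block, Cdkn1a (0.48 ± 0.08), Sesn2 and Pmaip1 (0.62 ± 0.14), and 1 fell, Mdm4 (-0.50 ± 0.07), beside 5.65% and 8.35% of all genes. Of 13 host genes of small nucleolar RNAs 7 were tested and 0 called in either fit. Their median was -0.07, and Gas5, itself a TOP transcript and named after its values were seen, gave -0.07 ± 0.14.

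Totals were 15417234 to 19183999 counts per library. Stimulation showed in 7 of 7 activity-induced genes, which rose without the block (median log2 3.24). All 10 excitatory and 12 inhibitory neuron markers passed the low-count filter, as did all 10 astrocyte, 10 oligodendrocyte and 9 progenitor markers. Excitatory markers summed to 1245 to 1385 CPM in controls and 1076 to 1275 CPM in NMDA libraries, and inhibitory markers to 650 to 678 and 709 to 749 CPM. The astrocyte sum was larger than either, at 2196 to 2864 CPM in controls and 2368 to 3606 CPM in NMDA libraries, and 7 of 10 astrocyte markers rose with the block (all genes 5.65%), 0 without. Oligodendrocyte and precursor markers summed to 563 to 1086 CPM in controls and 686 to 1060 CPM after NMDA. Of 10 microglial markers 3 were tested, and the sum was 10.4 to 18.0 CPM over all libraries. The part of these cells in the members' values was not tested.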

How the data were processed

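The 6 libraries of poly(A)-selected RNA, 3 control and 3 NMDA, were prepared with a stranded kit and sequenced from single ends, per the labels' protocols. The authors deposited raw read counts per gene. Per the submitters' processing notes, the tools were HTSeq, TopHat and Trimmomatic and the genome build was mm10 (GRCm38.p6). Not given in the sources used here were tool versions, annotation release, strand setting and the treatment of reads with several matches. Reads that match a gene and a pseudogene alike may have been placed on either or dropped.

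Members were taken by symbol. Members, gene lists and tests were chosen with earlier results of these data known. Counts were fitted with edgeR 4.0.16 in R 4.3.3: a low-count filter (minimum count 10, minimum total 15) left 14642 genes, followed by TMM scaling and robust quasi-likelihood F tests of the group, with no other term. P-values were adjusted by Benjamini-Hochberg over all genes tested, with a threshold of 0.05. CPM values use TMM-scaled library sizes; ratios and pair values use a pseudocount of 0.1 CPM. A second fit took the members alone for TMM, so that 0 is their shared shift. Depth was 15417234 to 19183999 counts per library, and rows without a symbol held 0.219 to 0.246% of counts. Libraries of a group differed beyond sampling noise (chi-square per degree of freedom 8.27 to 58.7), so each counted as 1 sample.

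The replicate numbers were checked for pairing: deviations from group means correlated at 0.54, 0.38 and 0.49 over all genes between libraries of the same number, all above the limit of 0.1, and at -0.41 to -0.02 between different numbers. The data alone give this pairing: no label explains the numbers. The fit with the number as a block has 2 residual degrees of freedom, against 4. Named members were the 6 highest and 6 lowest fitted changes, every member called, both genes of each paralogue pair, 9 fixed by function, and the highest and lowest per kb; of the lists, called genes (at most 5) or the 2 with the smallest p. Others are said to be chosen after their values were seen, or are named in a count.

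Exonic lengths, coordinates and shared 50-base stretches came from GENCODE M21, which held all 80 members, and start sequences from RefSeq. In an alternative added after the data were seen, 645 pseudogenes were added to the member they share a stretch with. Other alternatives were DESeq2 1.42.0 size factors and Wald test, upper quartile scaling, limma-voom (limma 3.58.1), other filters, the block, offsets for GC content and length (mgcv 1.9.3), and each library left out. The scripts were tested on counts simulated from the blocked fit. With 1.25-fold changes the fit without the block called 0 of 62 changed genes and the blocked fit 21. With 1.5-fold changes they called 6 and 47 of 69. The changes fitted in most members were smaller than 1.25-fold, so changes of their size could be missed both without and with the block.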

Additional observations from a re-analysis of the deposited data

How the results depend on the processing

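No ribosomal protein gene was called under another scaling, filter or test, with any 1 library left out, or with offsets for GC content and length, without the replicate block. With the replicate block 1 was called, with the block and offsets for GC content and length 2, and with the block and pooled pseudogene counts 1; over the leave-out fits the count ran from 0 to 32, the highest without replicate 1. All genes called numbered 63, and 306 with the DESeq2 Wald test, 260 with no low-count filter, 2051 with the replicate block, 2118 with the block and the offsets, 2059 with the block and pooled counts, and 20 to 2707 over the leave-out fits. The members' median log2 fold change stayed between 0.06 and 0.09 under the settings that keep all libraries, and ran from -0.04 to 0.21 over the leave-out fits. The difference in their share of counts was 0.0818 percentage points, and -0.0423 without control replicate 3. Against the shared shift 0 were called in every fit run. With all libraries and TMM on the members, 0.731% of all genes were called without the block and 3.74% with it. The wide standard errors given above kept small departures from being called in these fits.

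Small changes turned sign under other settings. In limma-voom Rpl22l1 gave 0.012, Rpl29 0.038, Rpl34 0.030 and Rplp0 0.010. With the replicate block Rpl22l1 gave 0.0097, Rpl34 0.019 and Rplp0 0.0096. With the block and offsets Rpl22l1 gave 0.0094 and Rps15a 0.019. With the block and pooled counts Rpl22l1 gave 0.0055, Rpl29 0.038, Rpl34 0.0033 and Rplp0 0.014. Rpl29 gave 0.037 with pooled counts, Rplp0 0.00030 with upper quartile scaling and Rpsa -0.0089 with the offsets alone. With libraries left out, the sign turned for 22 of the 29 named members. Fitted changes ran in Rpl10a from -0.20 to 0.057, in Rpl11 from -0.010 to 0.23, in Rpl12 from -0.22 to 0.19, in Rpl22 from -0.0029 to 0.15, in Rpl22l1 from -0.21 to 0.39, in Rpl29 from -0.26 to 0.18, in Rpl34 from -0.23 to 0.35 and in Rpl41 from -0.041 to 0.23. They ran in Rpl5 from -0.11 to 0.096, in Rpl7 from -0.070 to 0.14, in Rplp0 from -0.15 to 0.15, in Rplp1 from -0.019 to 0.33, in Rps14 from -0.30 to 0.26, in Rps15 from -0.036 to 0.24, in Rps15a from -0.19 to 0.093 and in Rps27 from -0.017 to 0.38. The others were Rps27a from -0.099 to 0.31, Rps27l from -0.12 to 0.18, Rps4l from -0.011 to 0.58, Rps4x from -0.0069 to 0.26, Rps6 from -0.16 to 0.088 and Rpsa from -0.10 to 0.19. The paralogue ratio difference ran from -0.20 to 0.13 for Rpl22l1, from -0.057 to 0.12 for Rpl7l1, and from -0.046 to 0.34 for Rps4l. The cause was not tested. Where 1 sample of an arm is left out, the fit pools the spread over all samples kept. Depth limits Rps4l, at 18 to 41 counts per library, and with 3 pairs the blocked fit rests on 2 residual degrees of freedom.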
